A study of Caenorhabditis elegans with 2 samples.

Results

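The 36 genes annotated on the mitochondrial DNA of Caenorhabditis elegans were examined for peaks of a chromatin immunoprecipitation followed by sequencing (ChIP-seq) experiment. They were taken from the Ensembl 115 annotation of the WBcel235 assembly (ce11), which lists 46926 genes in all. They comprise 12 protein-coding genes, 22 tRNA genes and 2 rRNA genes, and all 36 lie on the plus strand of the circle of 13794 bp. Membership was set by the annotation alone and used no measured value, although the set was chosen with earlier results of these data known. The experiment immunoprecipitated eGFP-ztf-11 from whole mixed-sex L3 larvae of strain OP236, which carries unc-119(ed3) on chromosome III and the transgene wgIs236. There was 1 group with 2 biological replicates and no second strain, stage or untagged group, so the tagged factor came from a transgene in every animal and cell types were not separated. The antibody field names ztf-11, and the size range of both libraries is given as 150 to 350.

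The mitochondrial DNA of animals encodes subunits of the respiratory chain and of ATP synthase, together with the rRNAs and tRNAs that translate them inside the organelle. In C. elegans it is a compact circle present in many copies per cell, and its genes are read from the same strand with few bases between them. ZTF-11 is a zinc finger protein of the Myt1 family, known from work on neurogenesis as a nuclear regulator of transcription.

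A peak is a stretch that the authors' peak caller reported, its summit is the single position given in the last column of the list, and its signal score is the authors' own value on a scale that the sources used here do not state. Scores were therefore used to rank and describe peaks, and scores of different lists are set side by side only. The sequences at the summits of the 5 mitochondrial peaks with the highest scores in the thresholded list are shown because they have the highest scores of that list. Each runs from 50 bp before to 50 bp after the summit, 5′ to 3′ on the plus strand, from the RefSeq sequence of WBcel235. Capitals mark AAGTTT or its reverse complement, the core of sites of Myt1-family proteins, which was found in the ND5 window and in none of the other 4. Of all windows of 101 bp on the circle 17.1% held AAGTTT, and 2 of the 23 thresholded summit windows of that size did (8.70%). The match in ND5 is therefore no more than the sequence of the circle offers.
ND5, chrM:12368-12468: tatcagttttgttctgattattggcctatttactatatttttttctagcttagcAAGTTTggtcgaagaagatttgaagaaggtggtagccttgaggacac
ND2, chrM:3663-3763: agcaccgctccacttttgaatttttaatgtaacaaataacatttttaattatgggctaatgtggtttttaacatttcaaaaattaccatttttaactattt
COX1, chrM:8198-8298: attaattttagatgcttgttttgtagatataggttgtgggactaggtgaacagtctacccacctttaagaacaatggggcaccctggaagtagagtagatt
CYTB, chrM:4613-4713: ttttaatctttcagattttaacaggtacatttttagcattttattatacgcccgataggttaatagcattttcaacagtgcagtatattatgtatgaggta
ND1, chrM:1803-1903: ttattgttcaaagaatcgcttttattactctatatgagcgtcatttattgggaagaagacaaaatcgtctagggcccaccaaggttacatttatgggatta

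The mitochondrial genes had peaks in 3 of the 4 ce11 lists. The replicate 1 list held 0 mitochondrial peaks among 30000, while the replicate 2 list held 29 among 2036. The pooled list, made by the authors from both replicates together, contained 24 among 631, and the thresholded list, a subset of it with the same scores, held 23 among 96. The authors' name for the pooled list is peaks and background, as input for the thresholding, so an entry there need not be a called peak. The replicate 1 list also held 30000 entries on the ce10 assembly, and its ce11 scores went down to 6.32. Whether that length was a set limit is not stated in the sources used here, and entries there need not be called peaks either. Everything that follows thus rests on replicate 2 and on lists to which replicate 2 contributed, and no second replicate supports it. The sources used here do not say whether mitochondrial reads or peaks were filtered in replicate 1. Without read numbers in the lists, depth is unknown, and no score has a replicate error.

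By a minimum overlap of 1 bp, peaks lay on 28 of the 36 genes in the replicate 2 list, where 3.77% of all annotated genes had a peak. They lay on 26 genes in the pooled list against 1.45% of all genes, and on 22 genes in the thresholded list against 0.194%. In the replicate 1 list 0 of the 36 had a peak, against 33.2% of all genes. Peaks covered 58.1% of the circle in the replicate 2 list, 50.6% in the pooled list and 48.2% in the thresholded list. Cover also depends on the usual peak width, which was 360 bp in the replicate 2 list and 320 bp in the pooled and thresholded lists. The nuclear sequence was covered to 0.718%, 0.193% and 0.0232% in the same lists. At this density a peak on a given mitochondrial gene says little by itself, and the genes are described by which peaks and summits they held.

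Mitochondrial peaks held the highest ranks of every list that contained them. In the replicate 2 list they took ranks 1 to 24, and the first nuclear peak had rank 25. The 29 mitochondrial scores ran from 25.9 to 614 with a median of 129, against 14.7 to 68.8 with a median of 16.4 for the 2007 nuclear peaks. In the thresholded list the 23 mitochondrial scores ran from 44.1 to 891 with a median of 147, and the 73 nuclear ones from 41.0 to 107 with a median of 46.9. The score ranges overlapped in both lists, and the lowest mitochondrial rank was 82 in the replicate 2 list and 72 in the thresholded list. The plot of score against rank shows the mitochondrial peaks at the top of 3 lists and absent from the replicate 1 list, whose highest score was 74.2.

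**Figure D1:**
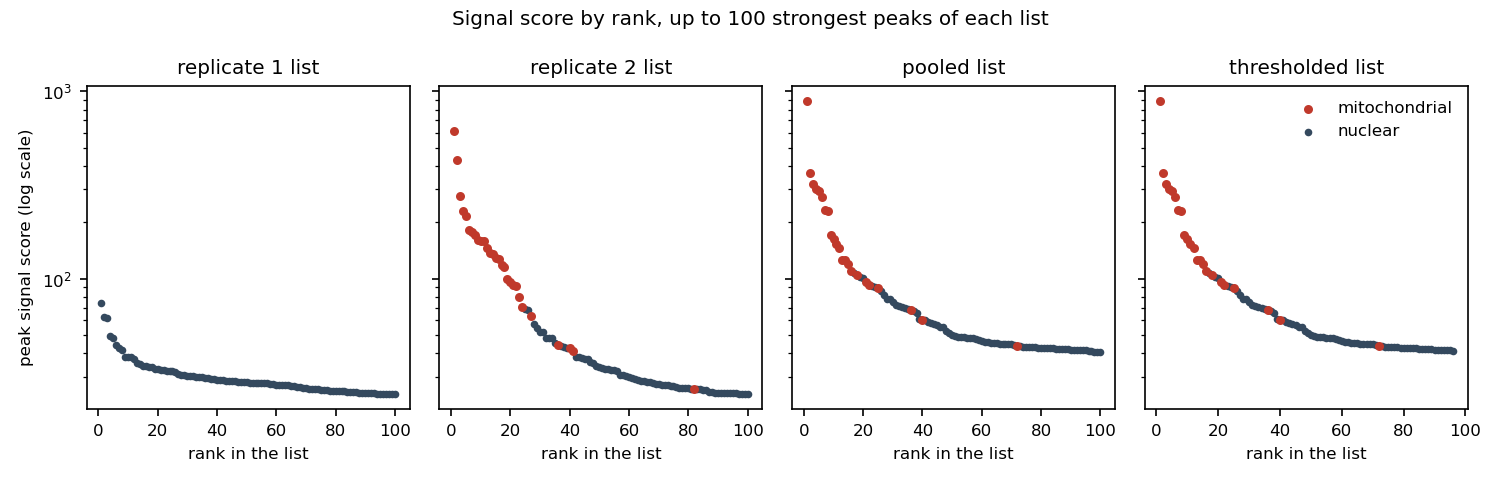
Signal score of each peak on a log scale against its rank, for up to 100 of the strongest peaks of the replicate 1, replicate 2, pooled and thresholded lists. Red points are mitochondrial peaks and dark points nuclear peaks. Mitochondrial peaks hold the 10 highest ranks in all lists except that of replicate 1, which holds 0.

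Among the 7 genes of complex I, the NADH dehydrogenase that feeds electrons into the chain, ND5 held the peak of rank 1 in all 3 lists with mitochondrial peaks. ND5 (WBGene00010967, chrM:11691-13272) scored 614 in the replicate 2 list, at chrM:12261-12513, and 891 in the pooled and thresholded lists, at chrM:12325-12524. The summits, at 12394 and 12418, were 24 bp apart. A second ND5 peak had its summit at 13184 in all 3 lists, with scores of 216 and 273. These peaks were narrow, and they covered only 30.0% of ND5 in the replicate 2 list and 21.8% in the thresholded list, with 632 bp before and 526 bp between them uncovered in every list.

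ND2 (WBGene00010961, chrM:3389-4269) had the next strongest thresholded peak, with a score of 367 at summit 3713, and a score of 278 at summit 3752 in the replicate 2 list. It was covered to 36.3% in the thresholded list and 17.3% in the replicate 2 list. The start of ND2 differs between annotations: Ensembl places it at 3389, inside a tRNA-Ser gene, and RefSeq at 3418. ND1 (WBGene00010959) held 3 summits in each list, with top scores of 183 in the replicate 2 list and 294 in the thresholded list. It was covered to 80.2% and 80.8%, more than ND5 in either list.

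ND4 (WBGene00010963) held 2 summits in the replicate 2 list and 3 in the thresholded list, with top scores of 171 and 229. Both top peaks had their summit at 7689. ND3 (WBGene00010966), a short gene of 336 bp, had 1 peak in each list, with scores of 147 and 171. The weakest genes of complex I were the neighbours ND6 and ND4L. ND6 (WBGene00010957) scored 63.5 in the replicate 2 list, where its peak covered 75.1% of it, and 31.3 in the pooled list, where 5.72% was covered. ND4L (WBGene00010958) had no replicate 2 peak and lay wholly under that pooled peak of 31.3, which had rank 254. The authors' -log10 q-value of that peak was 0.288, the lowest among the mitochondrial peaks of the pooled list, whose maximum was 1.65. Neither ND6 nor ND4L had a thresholded peak, and they were the only protein-coding genes without one.

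The single mitochondrial gene of complex III, CYTB for cytochrome b (WBGene00000829, chrM:4504-5621), scored 428 in the replicate 2 list, the second highest there. In the thresholded list it scored 302, rank 4, and the summits lay 80 bp apart at 4743 and 4663. Each list placed 2 summits in CYTB, and 402 bp at its 3′ side were uncovered in all lists.

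The 3 genes of complex IV, cytochrome c oxidase, lay under peaks for most of their summed length. COX1 (WBGene00010964, chrM:7827-9428), the catalytic core subunit, held 6 summits in the replicate 2 list and 4 in the thresholded list, and was covered to 92.8% and 66.2%. Its top score was 171 in the replicate 2 list, from a peak whose summit lay in ND4, and 319 in the thresholded list at summit 8248. COX3 (WBGene00010962) held 3 and 2 summits, with top scores of 230 and 232 at different positions, 5750 and 6154. COX2 (WBGene00010965) held 2 summits in the replicate 2 list and 1 in the thresholded list. Its top thresholded score of 120 came from a peak with its summit in l-rRNA, and the thresholded peak with its summit in COX2 scored 110. Its top replicate 2 score was 136. Summed over the complex, 90.2% of the sequence was covered in the replicate 2 list, against 42.9% for complex I. In the thresholded list the values were 63.9% and 43.6%. Scores went the other way. Peaks with their summit in complex IV had a median score of 96.4 in the replicate 2 list, against 174 for complex I. In the thresholded list these medians were 147 and 200. ATP6 (WBGene00010960), the mitochondrial gene of ATP synthase, scored 137 and 126 and was covered to 76.1% and 51.5%.

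**Figure D2:**
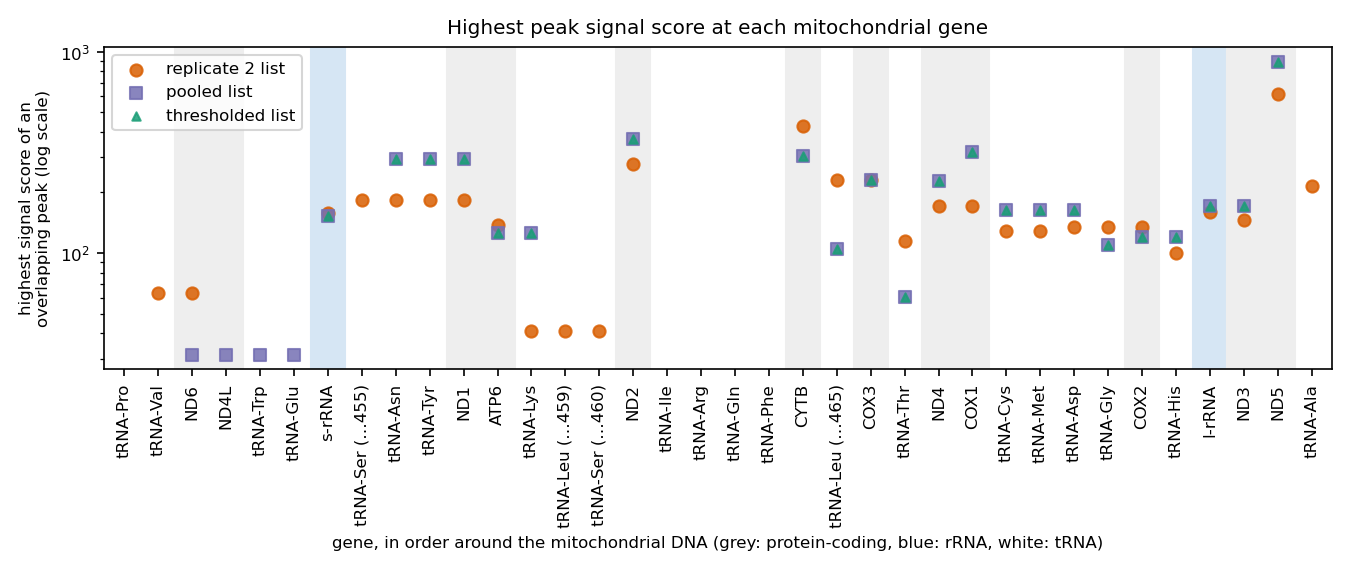
Highest signal score, on a log scale, of any peak that overlaps each of the 36 genes, in order around the circle; circles are the replicate 2 list, squares the pooled list and triangles the thresholded list. Numbers after the dots are the last digits of the WormBase IDs of tRNA genes that share a name. ND5 is highest in every list shown, ND6 and ND4L are the lowest protein-coding genes, and 5 tRNA genes have no point.

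Both rRNA genes had peaks in all 3 lists. The small subunit gene s-rRNA (WBGene00014454, chrM:898-1593) scored 159 in the replicate 2 list and 153 in the thresholded list, with summits at 1138 and 1151. A further replicate 2 peak there scored 43.0. The large subunit gene l-rRNA (WBGene00014472, chrM:10403-11354) scored 159 at summit 11075 in the replicate 2 list, while the thresholded peak nearest to it scored 67.9. The highest thresholded score on l-rRNA, 171, came from a peak whose summit lay in ND3. Summits in the rRNA genes numbered 4 of 29 in the replicate 2 list and 3 of 23 in the thresholded list (13.0%). These genes make up 11.9% of the circle.

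The tRNA genes, of 52 to 62 bp each, had peaks on 15 of 22 in the replicate 2 list, 12 in the pooled list and 10 in the thresholded list. No summit lay in a tRNA gene in any of these lists. The genes make up 8.83% of the circle, and 0 of 29 summits allows a share of up to 10.3%, so a shortfall was not detectable with these numbers. The overlaps came from peaks with summits in neighbouring genes, and single peaks touched as many as 3 tRNA genes. The tRNA-Asn and tRNA-Tyr genes lay under the ND1 peak with a thresholded score of 294. They were covered to 18.2% and 100% there, and both wholly in the replicate 2 list. At the other extreme, tRNA-Lys was touched by a thresholded peak over 3.23% of its length.

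The 5 tRNA genes without a peak in any list were tRNA-Pro, at the first base of the reference sequence, and the run of tRNA-Ile, tRNA-Arg, tRNA-Gln and tRNA-Phe between ND2 and CYTB. That run lay in a stretch of 630 bp, chrM:3873-4502, that was uncovered in every list, between 2 of the strongest peaks. A further 5 tRNA genes had a peak only in the replicate 2 list: tRNA-Val, tRNA-Ala, tRNA-Ser (WBGene00014455), tRNA-Ser (WBGene00014460) and tRNA-Leu (WBGene00014459). The tRNA-Trp and tRNA-Glu genes had only the weak pooled peak at ND4L. All 22 genes with a thresholded peak also had a replicate 2 peak: 10 protein-coding, 10 tRNA and 2 rRNA genes. The thresholded list derives partly from the replicate 2 list, so this is not independent evidence.

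**Figure D3:**
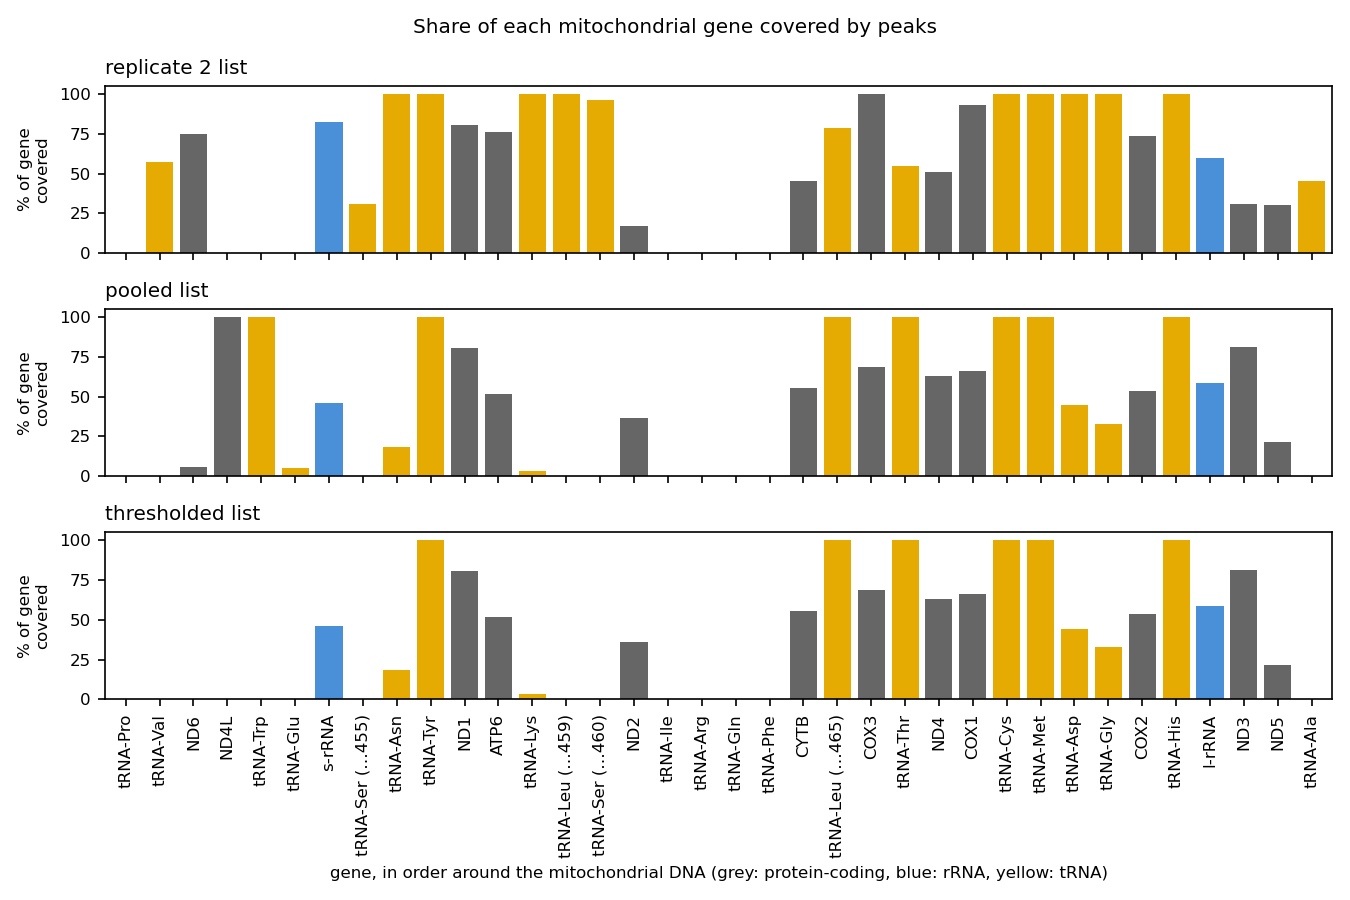
Percentage of the length of each gene that lies under at least 1 peak, in order around the circle, for the replicate 2, pooled and thresholded lists from top to bottom; grey bars are protein-coding genes, blue rRNA and yellow tRNA genes. The run from tRNA-Ile to tRNA-Phe is at 0 in all panels, and ND6 and ND4L are at 0 in the thresholded panel.

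The 2 longer noncoding stretches differed in cover. The long noncoding region between tRNA-Ala and tRNA-Pro, chrM:13328-13794 by Ensembl, is 467 bp long, 3.39% of the circle, and had no overlapping peak in any list. With 0 of 29 summits allowing a share of up to 10.3%, its lack of a summit was not distinguishable from its small size. Its GC content was 6.85%, against 23.8% for the whole circle. A stretch of 209 bp in it, chrM:13406-13614, repeats a unit of 43 bp about 4.86 times, and the unit is shown because it contains no G or C.
Repeat unit, chrM:13406-13448: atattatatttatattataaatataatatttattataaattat
Stretches of 36 bases that recur exactly on the circle started at 180 positions, all of them in this region, and the 12 that also occur in the nuclear chromosomes began between 13358 and 13369. No such stretch lay in a peak. The handling of repeats in the alignment is not stated in the sources used here, and their part in the absence of peaks was not tested.

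The other noncoding region, between ND4 and COX1, depends on the annotation. RefSeq ends ND4 at 7735 and starts COX1 at 7845, which leaves 109 bp, whereas Ensembl leaves 18 bp. Under either, it was wholly covered in all 3 lists, by the peak with its summit at 7689 in ND4. Its scores were 171 in the replicate 2 list and 229 in the thresholded list. The 109 bp are shown as the noncoding sequence that lay under a strong peak, and they hold no AAGTTT.
RefSeq gap, chrM:7736-7844: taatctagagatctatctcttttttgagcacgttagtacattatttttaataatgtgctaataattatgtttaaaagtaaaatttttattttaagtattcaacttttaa

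Around the circle, summits lay in protein-coding genes in 25 of 29 cases in the replicate 2 list (86.2%, exact Clopper-Pearson 95% confidence interval 68.3 to 96.1). In the thresholded list this was 20 of 23 (87.0%, interval 66.4 to 97.2). These genes make up 75.7% of the circle, which lies inside both intervals. The intervals treat the summits of a list as independent, which neighbouring and overlapping peaks are not, and they hold no replicate error. Neighbouring summits were 199 to 991 bp apart in the replicate 2 list, with a median of 401 bp, and 201 to 1761 bp apart in the thresholded list, with a median of 559 bp. The widest thresholded interval ran from ND5 across the noncoding region to s-rRNA. Of the 29 replicate 2 peaks 19 overlapped another, and peaks formed 17 separate blocks.

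Some mitochondrial peaks were narrower than the usual width of their list. In the replicate 2 list 8 of 29 were narrower than 360 bp, with widths down to 104 bp, against 0 of 2007 nuclear peaks. In the thresholded list 2 of 23 were narrower than 320 bp, both in ND5, against 0 of 73 nuclear peaks. The narrow replicate 2 peaks included those with ranks 1 to 5, in ND5, CYTB, ND2, COX3 and again ND5. The -log10 q-values of the authors reached the maximum of the list, 1.98, in 28 of 29 replicate 2 peaks, and so did not rank them. The exception was a COX2 peak with a score of 25.9 and a -log10 q of 1.17.

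Positions were compared between the thresholded and the replicate 2 peaks, which share reads. All 23 thresholded mitochondrial peaks overlapped a replicate 2 peak, and the summit of the one that overlapped most lay 0 to 266 bp away, with a median of 40 bp. For 17 of the 23 the distance was at most 100 bp. Replicate 2 peaks covered 58.1% of the circle, and their neighbouring summits had a median spacing of 401 bp. Many overlaps and short distances would thus arise wherever the peaks lay, and the share expected from position alone was not computed. Spearman's rho of the 2 scores over these 23 pairs, which involved 22 different replicate 2 peaks, was 0.47. The order at the top was similar, with ND5 first in both lists and ND2 and CYTB among the first 4. The ranks differed at COX1, where rank 3 in the thresholded list stood beside rank 21. At COX2 the peak with thresholded rank 16 overlapped most with a replicate 2 peak of rank 82. That COX2 peak also overlapped, over fewer bases, a replicate 2 peak with rank 14, so the difference there depends on the pairing. Another COX1 peak had thresholded rank 72 and overlapped a replicate 2 peak with rank 23. These ranks count nuclear peaks too, and among mitochondrial peaks alone both of these had rank 23. At COX3 a peak of thresholded rank 18 overlapped most with a replicate 2 peak of rank 4, and over fewer bases with one of rank 22.

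**Figure D4:**
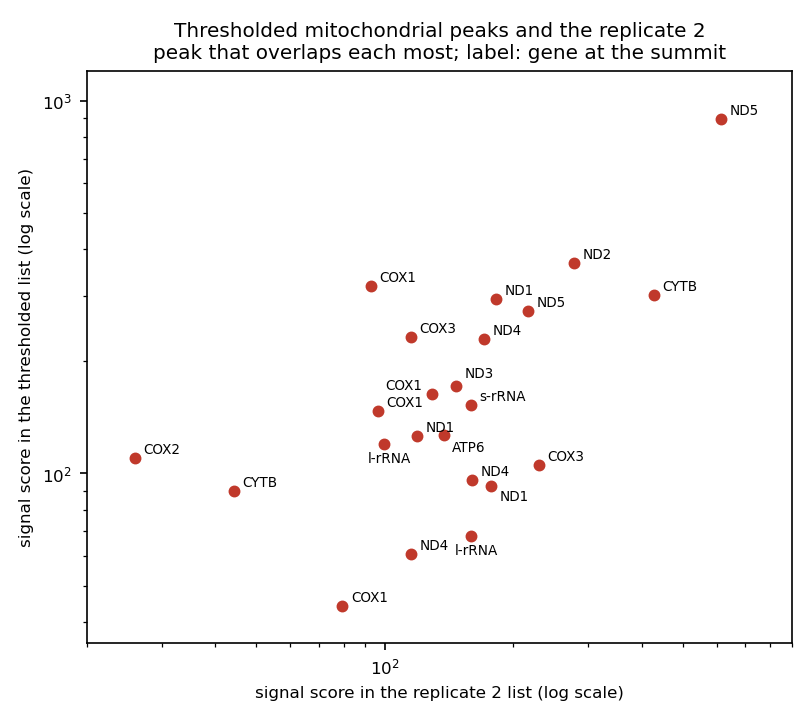
Signal scores, both on log scales, of the 23 thresholded mitochondrial peaks against that of the replicate 2 peak that overlaps each most, labelled by the gene at the thresholded summit. With the replicate 2 score first, ND5 is at the upper right with 614 and 891, COX2 is at the far left with 25.9 and 110, and a COX1 peak has 92.7 and 319. The COX2 peak also overlaps, over fewer bases, a replicate 2 peak with a score of 136.

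Base composition and motif content were described over all peaks. Sequence under replicate 2 peaks had a GC content of 26.0%, and uncovered sequence, which includes the long noncoding region, 20.7%. For the thresholded list the values were 24.7% and 23.0%. Single thresholded peaks ranged from 15.2% in the second ND5 peak to 31.9% in COX1. Score and GC content of the peaks correlated weakly, with Spearman's rho of -0.25 over the 29 replicate 2 peaks and 0.16 over the 23 thresholded peaks. With the GC content of the 201 bp around each summit, which peak width does not affect, rho was -0.11 and 0.32. AAGTTT on either strand lay within 100 bp of 7 of 29 replicate 2 summits (24.1%, exact 95% interval 10.3 to 43.5). It lay near 4 of 23 thresholded summits (17.4%, interval 4.95 to 38.8), in ND5, COX1, CYTB and ND1. Of all windows of 201 bp on the circle 32.1% held it, a share inside both intervals. These intervals cover counting error only, and windows that overlap share sequence.

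Nuclear genes of the same classes and pathways were set beside the 22 of 36 mitochondrial genes with a thresholded peak. In the thresholded list 9 of 612 nuclear tRNA genes (1.47%), 32 of 19973 nuclear protein-coding genes (0.16%) and 0 of 20 nuclear rRNA genes overlapped a peak. The nuclear tRNA share was 8.50% in the replicate 2 list and 7.52% in the pooled list. Gene length affects such counts. Median lengths of nuclear and mitochondrial genes were 72 and 55 bp for tRNA, 2027 and 822.5 bp for protein-coding and 119 and 824 bp for rRNA genes. Of 6 nuclear genes that maintain or transcribe mitochondrial DNA (hmg-5, polg-1, rpom-1, mtss-1, twnk-1 and tfbm-1), 0 had a peak in the replicate 2, pooled or thresholded lists and 6 in the replicate 1 list. Of 32 nuclear respiratory chain genes, 22 had a replicate 1 peak, 6 a replicate 2 peak, 5 a pooled peak and 2 a thresholded peak. Of all nuclear protein-coding genes, 59.2% had a replicate 1 peak, 6.59% a replicate 2 peak and 1.97% a pooled peak. The 2 genes with a thresholded peak were cox-6B, with a thresholded score of 49.3 at rank 52, and cox-5B, with 46.9 at rank 59. Both encode subunits of complex IV. The thresholded peaks with their summit in a mitochondrial gene of that complex scored 44.1 to 319, and the lowest of them, in COX1 at rank 72, scored below both nuclear genes.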

How the data were processed

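Peaks from immunoprecipitation of the tagged ZTF-11 protein in third-stage larvae were analysed from 2 biological replicates of 1 group. Per the deposited text records, the authors made 1 list from each replicate with a control and 1 from both pooled. They made a thresholded list, named optimal, by the irreproducible discovery rate from the other 3. As the replicate 1 list holds 0 mitochondrial peaks, the thresholded mitochondrial peaks do not show agreement between the replicate lists. The sources used here do not give the aligner, peak caller, filters or thresholds. The deposited signal score and the -log10 q-value of each peak are the authors' values. The lists hold no counts, so depth and precision per sample are unknown.

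Ce11 peaks were placed on WBcel235, with 0 ends past a chromosome, by Ensembl 115 gene bounds, and gene names came from the RefSeq gene that overlapped most. Positions are 1-based. A gene had a peak at an overlap of 1 bp. Exact recurrence was searched with stretches of 36 bases. The named genes are every protein-coding and rRNA gene, the tRNA genes under the 5 strongest thresholded peaks or without a peak in a list, and noncoding gaps of 50 bp or more. No test between groups was possible, and none was run. A count of 0 was taken to allow up to 3, with summits treated as independent. Members and lists were chosen with earlier results of these data known. Of 33 respiratory chain symbols 32 were found. Python 3.11.15 and scipy 1.17.1 were used, and overlap functions were checked on simulated data.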

Additional observations from a re-analysis of the deposited data

How the results depend on the processing

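With replicate 1 or replicate 2 alone in place of the thresholded list, the number of mitochondrial genes with a peak was 0 to 28 (22 in the thresholded list), that of tRNA genes 0 to 15 (10), that of protein-coding genes 0 to 11 (10), and the covered share of the circle 0% to 58.1% (48.2%). Each 0 is that of replicate 1 alone. The median score was 129 with replicate 2 alone (147), and replicate 1 gave no score, summit or motif value. In the pooled list the covered share was 50.6% and the median 137. With the stronger part of the thresholded peaks the share was 25.7%, the median 252 and 5 tRNA genes had a peak. Fewer peaks enter there by construction. When at least 50% of a gene had to be covered, 6 tRNA genes had a peak. When the summit had to lie in the gene, 12 genes had a peak, of which 0 were tRNA genes. The median in the ce10 thresholded list was 147. RefSeq gene bounds, chosen after seeing the data, gave 23 genes. The shares of summits in protein-coding genes and of windows with AAGTTT stayed within their intervals in every alternative run. With 50 bp each side the share with AAGTTT was 8.70%, but this run is not comparable with the interval for 201 bp. Shorter windows hold AAGTTT less often by construction, with 17.1% of windows on the circle at 101 bp against 32.1% at 201 bp. Limits are that 1 replicate carries the mitochondrial peaks, that scores have no replicate error and that depth is unknown.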
